A study of Rattus norvegicus with 10 samples.

Results

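A set of 9 genes that mark resting, homeostatic microglia was followed in the lumbar spinal cord of morphine-tolerant and saline-treated rats. They were Tmem119, P2ry12, P2ry13, Cx3cr1, Gpr34, Csf1r, Siglec5, Slc2a5 and Sall1, and their probes were found by the RefSeq mRNA accession that the array gives for each probe. All 9 genes were on the array, among 15313 mRNA accessions, and all 9 were tested, among 13373 mRNAs and 20284 RNAs in all. The rats were male Sprague Dawley rats, and their age was not given in the labels. The 5 rats of the morphine tolerance group (MT, rats 1 to 5) received 10 μg of morphine in 10 μl into the intrathecal space 2 times a day for 7 days. The 5 rats of the normal saline group (NS, rats 6 to 10) received 10 μl of saline on the same schedule. Per the study's methods, the lumbar enlargement was taken 1 h after a further morning injection on the day that followed. Total RNA of each rat was labelled with Cy3 and hybridized to 1 rat lncRNA array, which also carries mRNA probes. Both groups shared the intrathecal injections and the anaesthesia, and no untouched rats were analysed here.

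Microglia are the resident macrophages of the brain and spinal cord. They arise early in development, survive on signals through the receptor CSF1R, and hold their surveying state under TGF-β. In that state they carry a set of surface receptors that sense nucleotides, chemokines and lipids released by neurons and damaged cells, and many of these genes are known to be lowered when microglia are activated. Tmem119 and P2ry12 are used to tell microglia from blood-borne macrophages, whereas Csf1r and Cx3cr1 are shared with other myeloid cells. The arrays measured whole tissue, so fewer microglia and less RNA per microglial cell cannot be told apart.

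The promoters of the members were read from a RefSeq table of the rat assembly GRCr8, which held 6 of the 9 (P2ry13, Cx3cr1, Gpr34, Slc2a5, Siglec5 and Csf1r). Each window covered the 250 bases before the start that this table gives for the gene. That start lies inside the gene spans printed below for all 6, so the windows are not the bases before the outer end of the gene. They were searched on both strands for GAGGAA and GGAAGT, letters of the site of the myeloid ETS factor PU.1, and for CAGAC, letters of the SMAD box through which TGF-β signals act. GAGGAA was found in 3 of the 6 windows (Gpr34, Siglec5 and Csf1r) and in 23.3% of 33469 promoters of the same length. GGAAGT was found in 1 of the 6 (Siglec5) and in 19.2% of all promoters, and either of these strings in 3 of the 6 and in 36.7%. CAGAC was found in 3 of the 6 (Cx3cr1, Gpr34 and Csf1r) and in 42.9% of all promoters. A match describes the letters of the window and is not a binding site. The windows of Gpr34 and Slc2a5 are printed because both genes met the study's fold and P criteria below and only one of them holds an ETS string. Both are read 5′ to 3′ on the strand of the gene. Capitals mark the ETS string, which in Gpr34 lies on the opposite strand, 12 to 7 bases before the start.
Gpr34, chrX:11785837-11786086, minus strand: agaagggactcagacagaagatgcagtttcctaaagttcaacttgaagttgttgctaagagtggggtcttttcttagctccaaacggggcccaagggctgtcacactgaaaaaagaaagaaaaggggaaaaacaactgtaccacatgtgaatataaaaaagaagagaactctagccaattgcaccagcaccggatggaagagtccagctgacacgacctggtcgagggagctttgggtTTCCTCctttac
Slc2a5, chr5:165865929-165866178, plus strand: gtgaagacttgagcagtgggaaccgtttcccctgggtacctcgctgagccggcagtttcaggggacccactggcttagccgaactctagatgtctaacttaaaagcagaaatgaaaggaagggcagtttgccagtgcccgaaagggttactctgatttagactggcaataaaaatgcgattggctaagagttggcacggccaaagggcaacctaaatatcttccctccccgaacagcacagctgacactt

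In all, 8 of the 9 genes had a lower mean in MT than in NS, and 53.2% of all mRNAs did. The median log2 fold change (MT minus NS) of the 9 genes was -0.41, against -0.02 over all mRNAs tested. With an unadjusted P under 0.05 in limma's moderated test, 7 of the 9 were lower, against 10.4% of all mRNAs. A linear fold above 1.5 with that P was met by Tmem119, Slc2a5 and Gpr34, all lower in MT, against 0.987% of all mRNAs. The methods word this threshold as a log2 fold change, while the tables of the study hold linear folds, so the linear reading is called the study's criteria here. On the log2 scale a change above 1.5 with that P was found for 0 of the 9 genes and for 20 of all mRNAs. After Benjamini-Hochberg adjustment over all 20284 RNAs only Gpr34 passed 0.05, and 0.135% of all mRNAs passed it in that direction. Complete separation, with the highest MT value under the lowest NS value, was seen for 5 of the 9 genes (Tmem119, P2ry12, Gpr34, Csf1r and Slc2a5), and for 3.49% of all mRNAs. These are normalized values, and before normalization only Tmem119 of these genes was separated. The members were chosen with earlier results of these arrays known, and Tmem119 stands in the study's own list of changed mRNAs from the same arrays, so the count that includes it is not independent evidence. The study also measured Tmem119 by RT-qPCR and reported a significant difference in the same direction. It does not say whether the same rats were used.

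**Figure D1:**
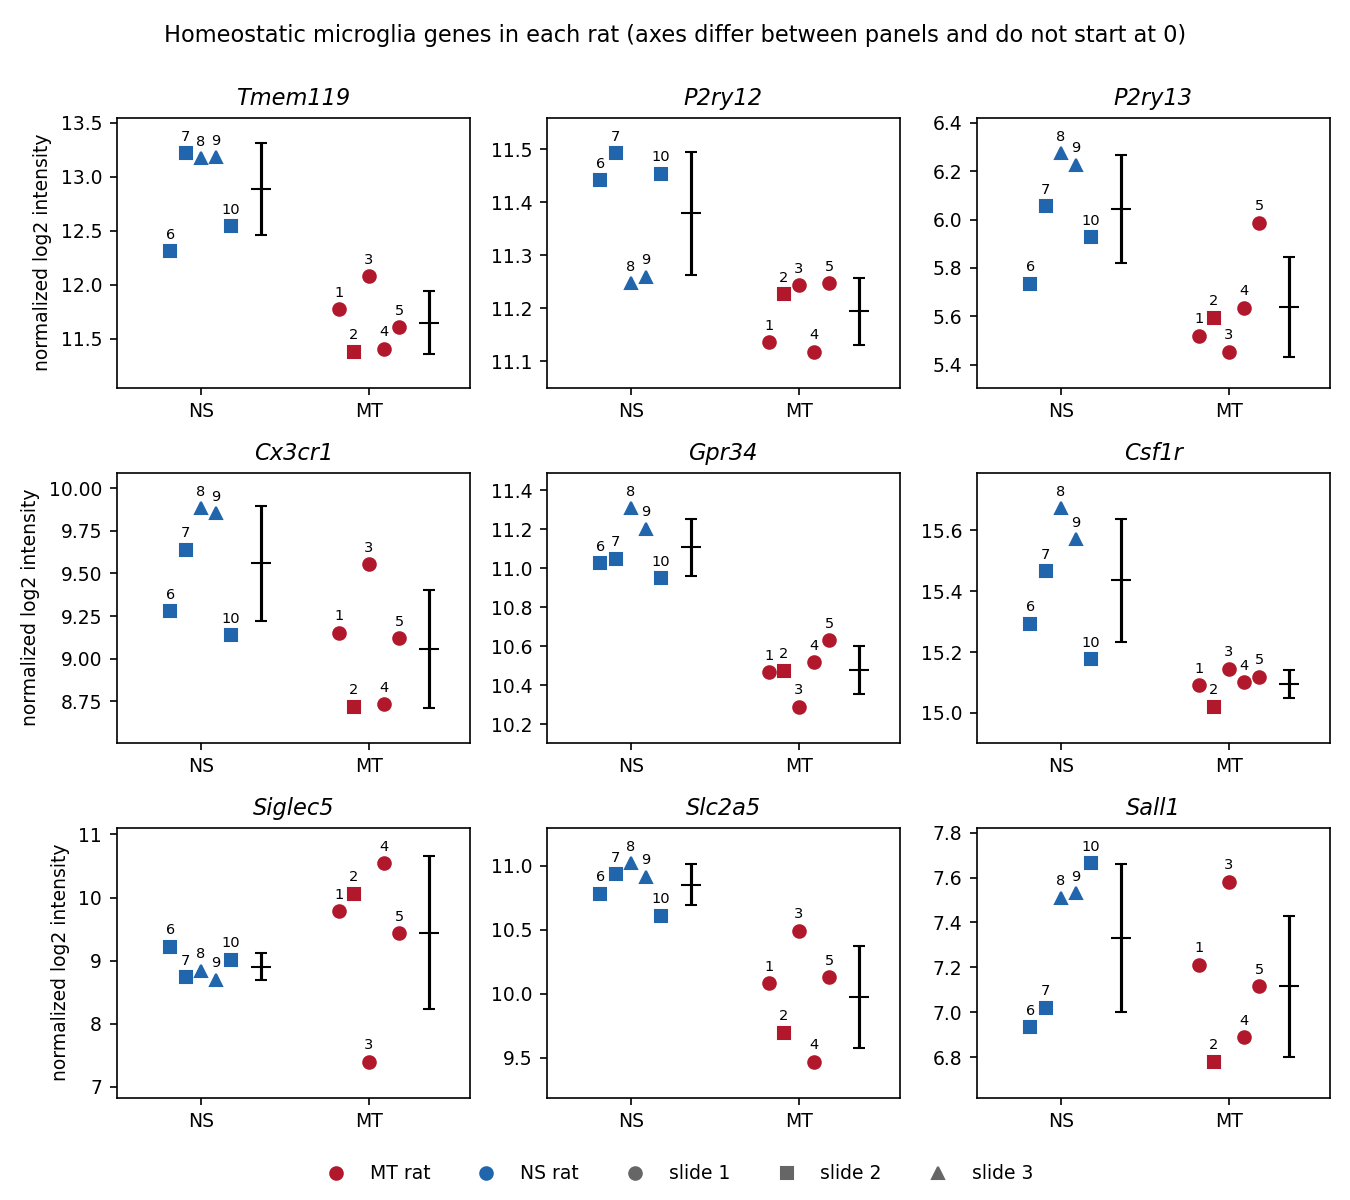
Normalized log2 intensity (vertical axis) of each of the 9 genes in every NS and MT rat (numbered points); colour gives the group, marker shape the slide, and the black bars give mean ± SD (n = 5). The groups do not overlap for Tmem119, P2ry12, Gpr34, Csf1r and Slc2a5, and MT rat 3 lies apart for Siglec5.

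Each member was measured by 1 probe in 1 spot, which was well above background on all 10 arrays and saturated on none. A slide is here the arrays with the same scan time in their file headers. Slide 1 held MT rats 1, 3, 4 and 5, slide 2 held MT rat 2 and NS rats 6, 7 and 10, and slide 3 held NS rats 8 and 9. The share of spots well above background was 81.1% to 83.9% for MT rats, 77.4% to 79.6% for the NS rats of slide 2, and 63.8% and 58.6% for NS rats 8 and 9. The groups can therefore be compared within a slide on slide 2 only. There the MT rat lay below all 3 NS rats for 8 of the 9 genes, all but Siglec5, as it did for 23.5% of all mRNAs. Of the 13373 mRNAs, 216 met the study's criteria as higher in MT and 132 as lower, and with each array scaled by its 75th percentile instead of quantile normalization these were 416 and 89.

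Tmem119 encodes a membrane protein found on microglia but on few other brain cells (gene ID 304581, GRCr8 chr12:48489157-48496214). Its normalized log2 intensity was 11.77, 11.38, 12.08, 11.40 and 11.60 in MT rats 1 to 5, and 12.31, 13.22, 13.17, 13.18 and 12.54 in NS rats 6 to 10. The highest MT rat, rat 3, lay below the lowest NS rat, rat 6. The mean was 11.65 ± 0.29 in MT and 12.88 ± 0.43 in NS (SD, n = 5 each). The log2 fold change was -1.24 ± 0.21 (SE), with a 95% interval from -1.71 to -0.76, so that NS was 2.36-fold higher on the linear scale. It was the largest difference among the 9 genes in either direction. The adjusted p in limma was 0.0555, and an exact two-sided permutation test over all assignments of the rats to 5 and 5 gave p = 0.00794, the smallest that 5 against 5 can give. Without NS rats 8 and 9 the log2 fold change was -1.04, and a fixed slide block gave -1.31.

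Among the receptors, P2ry12 and P2ry13 are neighbouring genes for ADP receptors, and P2ry12 steers microglial processes towards released nucleotides. P2ry12 (GRCr8 chr2:145631487-145673194) was at 11.14, 11.23, 11.24, 11.12 and 11.25 in the MT rats and at 11.44, 11.49, 11.25, 11.26 and 11.45 in the NS rats. The groups did not overlap, but MT rat 5 and NS rat 8 were equal to 2 decimals. The NS rats of slide 3 were the lowest NS rats for this gene, whereas for most other members they were among the highest. Its log2 fold change was -0.18 ± 0.07 (SE, 95% interval -0.35 to -0.02, adjusted p = 0.259 in limma), and it was -0.27 without rats 8 and 9.

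P2ry13 (GRCr8 chr2:145620321-145624730) was at 5.52, 5.59, 5.45, 5.64 and 5.99 in the MT rats and at 5.73, 6.06, 6.27, 6.23 and 5.93 in the NS rats. In all, 4 MT rats lay below all NS rats, and rat 5 lay within them. The log2 fold change was -0.41 ± 0.13 (SE, 95% interval -0.70 to -0.11, adjusted p = 0.188 in limma), and it was -0.27 without rats 8 and 9. P2ry13 was the dimmest member (mean 5.64 in MT and 6.04 in NS), and its difference depended on the processing. It was -0.18 under normexp background correction and -0.22 under 75th percentile scaling (unadjusted P = 0.0725 in limma). The interval of P2ry13 overlapped that of its neighbour P2ry12, and the difference between these genes was not tested.

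Cx3cr1 is the receptor for the neuronal chemokine fractalkine (GRCr8 chr8:128661294-128679048). It was at 9.15, 8.72, 9.56, 8.73 and 9.12 in the MT rats and at 9.28, 9.64, 9.88, 9.85 and 9.14 in the NS rats. In all, 3 MT rats lay below all NS rats, and MT rat 3 stood at the NS mean. The log2 fold change was -0.50 ± 0.20 (SE, 95% interval -0.95 to -0.06, adjusted p = 0.261 in limma). It was -0.30 without NS rats 8 and 9, the highest NS rats for this gene.

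Gpr34 is a G protein-coupled receptor for lysophosphatidylserine (gene ID 554353, GRCr8 chrX:11777667-11786640), and its promoter window is printed above. Its normalized log2 intensity was 10.47, 10.47, 10.29, 10.52 and 10.63 in the MT rats and 11.02, 11.05, 11.31, 11.20 and 10.95 in the NS rats. After normalization the groups did not overlap, with MT rat 5 the highest of its group and NS rat 10 the lowest of its own. Before normalization NS rats 9 and 10, at intensities of 1346.89 and 1849.2, lay within the MT range (1266.73 to 1862.05). The separation of Gpr34 thus rests on the normalization. The mean was 10.47 ± 0.12 in MT and 11.11 ± 0.15 in NS (SD, n = 5 each). Gpr34 fell by 0.63 ± 0.09 on the log2 scale (SE, 95% interval -0.83 to -0.43), to 64.6% of the NS level, with an adjusted p of 0.0414 in limma and an exact permutation p of 0.00794. The call did not hold without NS rats 8 and 9 (log2 fold change -0.53, adjusted p = 0.119), with the slide as a fixed block (-0.53, adjusted p = 0.726) or as a random block (-0.60, adjusted p = 0.243), or when no filter on dim probes was used (adjusted p = 0.0560). Leaving out each rat in turn gave adjusted p-values from 0.0440 to 0.179, of which only those without MT rat 2 and without NS rat 10 were under 0.05.

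Csf1r, the receptor on whose signal microglia depend for survival (GRCr8 chr18:56834152-56860804), was at 15.09, 15.02, 15.14, 15.10 and 15.12 in the MT rats. In the NS rats it was at 15.29, 15.47, 15.67, 15.57 and 15.18. The MT rats lay within a narrow range (SD 0.05, n = 5) just under the lowest NS rat, and the NS rats were spread more widely (SD 0.20, n = 5). Before normalization NS rats 8 and 9 were at intensities of 33674.5 and 25597.7, below all MT rats (36183.8 to 45078.6). Before normalization these 2 rats were below all MT rats for P2ry12, P2ry13 and Sall1 as well. Their arrays had median intensities of 42.1 and 29.8, and the other arrays 74.4 to 101.4. The normalized values of these 2 rats therefore rest on the scaling for every member. The log2 fold change was -0.34 ± 0.10 (SE, 95% interval -0.56 to -0.13, adjusted p = 0.156 in limma), and it was -0.22 without rats 8 and 9.

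Siglec5 encodes a lectin that binds sialic acids on cell surfaces and carries an inhibitory signal (GRCr8 chr1:102904705-102913281). It was at 9.79, 10.06, 7.39, 10.54 and 9.43 in the MT rats and at 9.22, 8.74, 8.84, 8.70 and 9.01 in the NS rats. In all, 4 MT rats lay above all NS rats and MT rat 3 lay below all of them. The SD was 1.22 in MT and 0.21 in NS (n = 5 each). The log2 fold change was 0.54 ± 0.50 (SE, 95% interval -0.56 to 1.65, adjusted p = 0.607 in limma). Without MT rat 3 it was 1.06 (adjusted p = 0.106), which met the study's fold and P criteria, and without MT rat 4 it was 0.27 (adjusted p = 0.822).

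Slc2a5 encodes the fructose transporter GLUT5, which in the nervous system is known from microglia (gene ID 65197, GRCr8 chr5:165857412-165892928). It was at 10.08, 9.70, 10.49, 9.47 and 10.13 in the MT rats and at 10.78, 10.94, 11.02, 10.91 and 10.61 in the NS rats. The groups did not overlap, and MT rat 3 came closest to the NS rats. The mean was 9.97 ± 0.40 in MT and 10.85 ± 0.16 in NS (SD, n = 5 each), a log2 fold change of -0.88 ± 0.18 (SE, 95% interval -1.28 to -0.48), so that NS was 1.84-fold higher. The adjusted p in limma was 0.0892 and the exact permutation p was 0.00794. It was -0.80 without NS rats 8 and 9 and -1.08 with the slide as a fixed block.

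Sall1 is the transcription factor that helps to keep microglia in their resting identity (GRCr8 chr19:34179316-34196278). It was at 7.21, 6.78, 7.58, 6.89 and 7.12 in the MT rats and at 6.93, 7.02, 7.51, 7.53 and 7.66 in the NS rats. The groups overlapped over most of their range. The log2 fold change was -0.22 ± 0.19 (SE, 95% interval -0.64 to 0.21, adjusted p = 0.589 in limma), which does not separate a small decrease from no difference. It was -0.09 without NS rats 8 and 9 and -0.43 with a fixed slide block, and leaving out each rat gave -0.33 (without MT rat 3) to -0.13 (without MT rat 2 or NS rat 10).

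**Figure D2:**
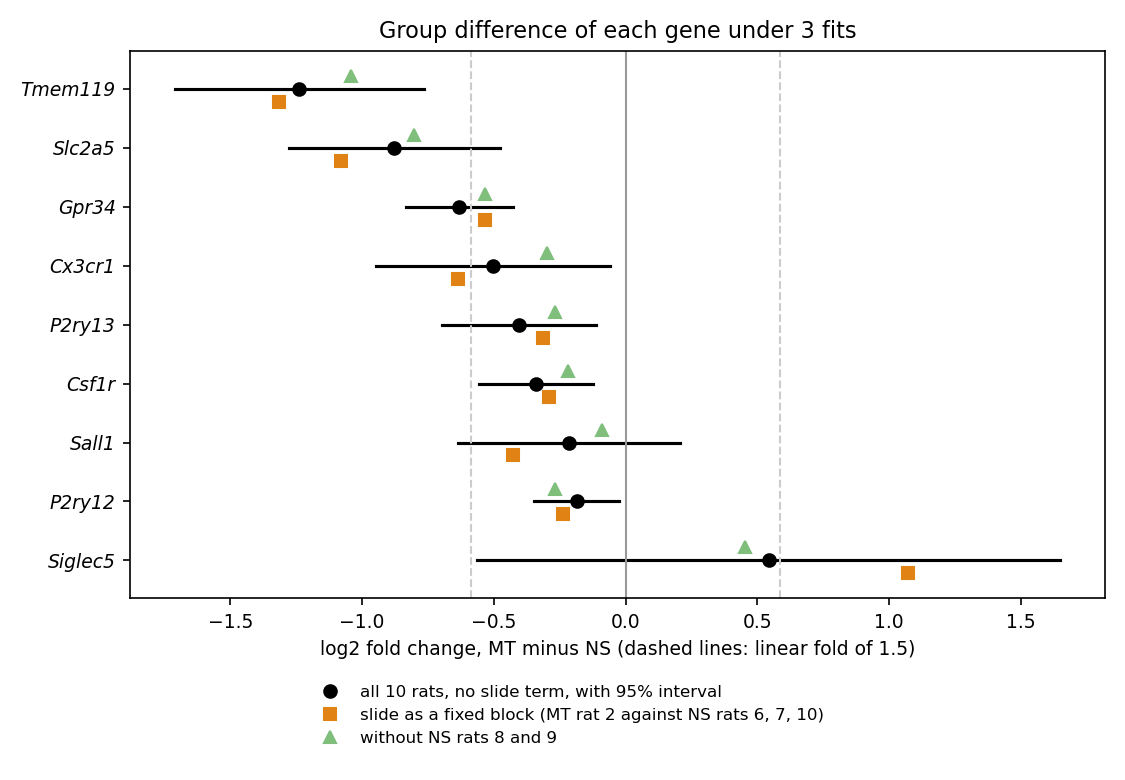
Log2 fold change (MT minus NS, horizontal axis) of each gene. Black points with lines give the estimate and 95% interval over all 10 rats, orange squares the fit with the slide as a fixed block and green triangles the fit without NS rats 8 and 9; the interval lies below 0 for 7 genes and includes 0 for Sall1 and Siglec5.

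The order of the differences was Tmem119 (-1.24), Slc2a5 (-0.88), Gpr34 (-0.63), Cx3cr1 (-0.50), P2ry13 (-0.41), Csf1r (-0.34), Sall1 (-0.22), P2ry12 (-0.18) and Siglec5 (0.54) on the log2 fold change scale. Each neighbouring pair in this order had overlapping 95% intervals. The interval of Tmem119 (-1.71 to -0.76) overlapped those of Slc2a5, Gpr34 and Cx3cr1, and not those of P2ry13, Csf1r, Sall1, P2ry12 and Siglec5. Under all 20 alternative settings tried, all 9 genes kept the sign of their difference. Tmem119 and Slc2a5 met the study's criteria under all 20, Gpr34 under 16 and Cx3cr1 under 3. Gpr34 passed the adjusted threshold under 8 of them, Tmem119 under 5 (over all 20 settings its adjusted p ran from 0.0262 to 0.843) and Slc2a5 under 1 (normexp, adjusted p = 0.0440).

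The rats did not rank the same way for all members. Among the MT rats, rat 3 was the highest for Tmem119, Cx3cr1, Slc2a5, Csf1r and Sall1, and the lowest for Gpr34, P2ry13 and Siglec5. MT rat 2 was the lowest for Tmem119, Cx3cr1, Csf1r and Sall1, and rat 4 was the lowest for Slc2a5 and P2ry12. Siglec5 ran the other way, with its highest values in rats 4 and 2. Among the NS rats, rat 8 was the highest for P2ry13, Cx3cr1, Gpr34, Slc2a5 and Csf1r.

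**Figure D3:**
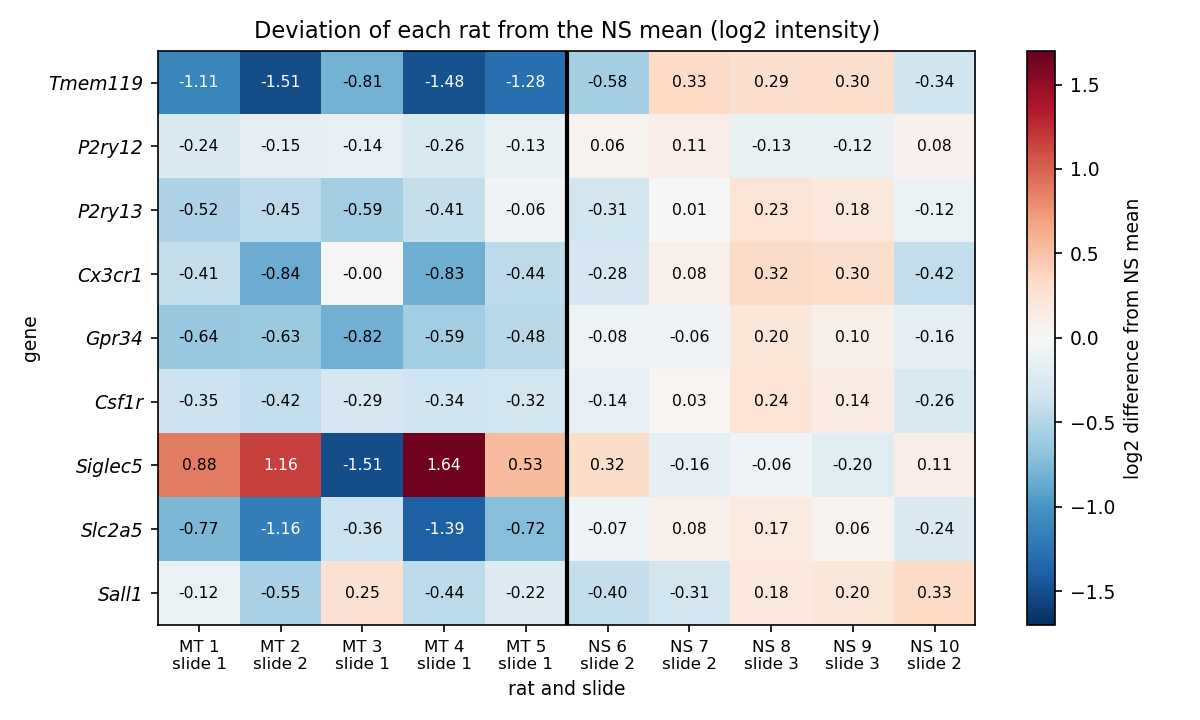
Difference of each rat from the NS mean on the log2 scale (colour and printed value) for the 9 genes (rows) and the 10 rats with their slide (columns); the black line separates MT from NS. All 5 MT rats are below the NS mean for 6 genes by more than rounding (Tmem119, P2ry12, P2ry13, Gpr34, Csf1r, Slc2a5), MT rat 3 is at it for Cx3cr1, and MT rat 3 differs from the other MT rats for Siglec5.

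The 5 mRNAs outside the 9 genes whose levels ran most like those of Tmem119 over the 10 arrays were Serpinb6b (Pearson r = 0.982), Slco2b1 (0.976), Kcnj5 (0.974), Asb2 (0.974) and Chd1l (0.968), of 12448 named mRNAs compared. All points share the arrays, the slides and the group difference. To remove the last of these, r was also taken after each group's mean was removed. It was then 0.959, 0.941, 0.931, 0.875 and 0.867 in the same order. Differences between slides remain in these values, as for the NS rats, whose mean Tmem119 was 12.69 on slide 2 and 13.18 on slide 3. Their log2 fold changes were -0.43 for Serpinb6b, -0.67 for Slco2b1, -0.73 for Kcnj5, -1.12 for Asb2 and -0.89 for Chd1l. Asb2, like Tmem119, is in the study's own list of changed mRNAs, and the study reported both as significant in the same direction by RT-qPCR. Of the members, Slc2a5 (0.930), Csf1r (0.919) and Cx3cr1 (0.890) ran most like Tmem119. With group means removed, r with Tmem119 was 0.909 for Cx3cr1, 0.766 for Csf1r, 0.727 for Slc2a5, 0.513 for Sall1, 0.391 for P2ry13, 0.178 for Gpr34, -0.278 for P2ry12 and -0.640 for Siglec5. These correlations describe 10 arrays and carry no test.

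Other genes of the microglia signature were taken from a list of 35, of which 27 were tested. Of these, 19 were lower and 8 higher in MT, with a median log2 fold change of -0.15. In this list 8 genes had an unadjusted P under 0.05, 7 of them lower, against 10.4% of all mRNAs lower. None of the 27 passed the adjusted threshold in limma. The study's criteria were met by 3 genes, all lower, against 0.987% of all mRNAs. They were Rgs1, a regulator of G protein signalling (-1.33, adjusted p = 0.0988), Slco2b1, an organic anion transporter (-0.67, adjusted p = 0.114), and Gpr183, an oxysterol receptor (-0.63, adjusted p = 0.124). Rgs1 is also on the study's own list. Fcrls, another gene on that list, was not matched because GRCr8 names it Fcrl2 and the lists were matched by current symbol. Looked up after the values were seen, Fcrl2 had a log2 fold change of -1.04 (adjusted p = 0.119) with no overlap of the groups, and it is not in the counts above. No value is given for the other unmatched genes of the list (Selplg, Crybb1, Golm1, Adora3, Arhgap5, Liph and Cd33). Fcrl2 was thus picked with the study's result known and does not stand for them. The TGF-β receptor gene Tgfbr1, in the same list, differed by -0.31 (adjusted p = 0.251).

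The ligands of these receptors were compared next. Csf1 and Il34, both ligands of CSF1R, had log2 fold changes of 0.11 (adjusted p = 0.679) and 0.07 (adjusted p = 0.732). Cx3cl1, the fractalkine gene, had -0.01 (adjusted p = 0.965). Of 14 genes of the ligands and the TGF-β axis 10 were tested, 5 higher and 5 lower, with a median of 0.00 and none past either threshold (0 at an unadjusted P under 0.05). The differences farthest from 0 were those of Tgfb1 (-0.31) and Smad7 (0.20). Tgfbr2 did not pass the filter on dim probes.

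Of 13 transcription factors known from microglia 10 were tested, 7 higher and 3 lower, with a median log2 fold change of 0.15, which turned to -0.08 with the slide as a fixed block. Cebpb (0.55, adjusted p = 0.173) and Cebpa (0.50, adjusted p = 0.204), which encode C/EBP factors, were the farthest from 0. Spi1, which encodes PU.1, had -0.40 (adjusted p = 0.315) and Irf8 0.17 (adjusted p = 0.601), and no probe matched Mef2c. None of the 10 met the study's criteria or the adjusted threshold. At an unadjusted P under 0.05, 3 were higher and 1 was lower, against 6.36% and 10.4% of all mRNAs.

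A list of 20 genes of myeloid cells in general, called pan-myeloid here, had lower means in MT for 17, against 53.2% of all mRNAs. Some of the 20 are also known from lymphocytes. Some of its genes, such as the complement genes C1qa, C1qb and C1qc and the receptor gene Trem2, are known mainly from microglia and macrophages. The median log2 fold change of the 20 was -0.28. At an unadjusted P under 0.05, 4 of the 20 were lower and 1 was higher, against 10.4% and 6.36% of all mRNAs. Only Trem2, a lipid-sensing receptor of microglia and macrophages, met the study's criteria as lower (-0.72, adjusted p = 0.0634), and only Cd14, a co-receptor for bacterial lipopolysaccharide, as higher (1.09, adjusted p = 0.0899). Without NS rats 8 and 9 the median of the list was -0.17 and Trem2, at -0.55, no longer met the criteria. The mean log2 intensity of the list lay between 11.91 and 12.47 in the MT rats and between 11.93 and 12.49 in the NS rats, so the groups overlapped over nearly their whole range. Among the MT rats this mean was highest in rat 3 and lowest in rat 4, and among the NS rats it was lowest in rat 10. The same held for the mean of the lymphocyte list below, and a part of lymphocytes in the pan-myeloid mean was not tested. Relative to this mean in the same rat, a description chosen after the values were seen, the difference (MT minus NS, log2) was -1.05 for Tmem119 and -0.69 for Slc2a5, in both cases with no overlap of the groups. For Gpr34 the relative difference was -0.45 and the groups overlapped. It was -0.32 for Cx3cr1, -0.22 for P2ry13, -0.16 for Csf1r, -0.03 for Sall1, -0.00 for P2ry12 and 0.73 for Siglec5, each with overlap.

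**Figure D4:**
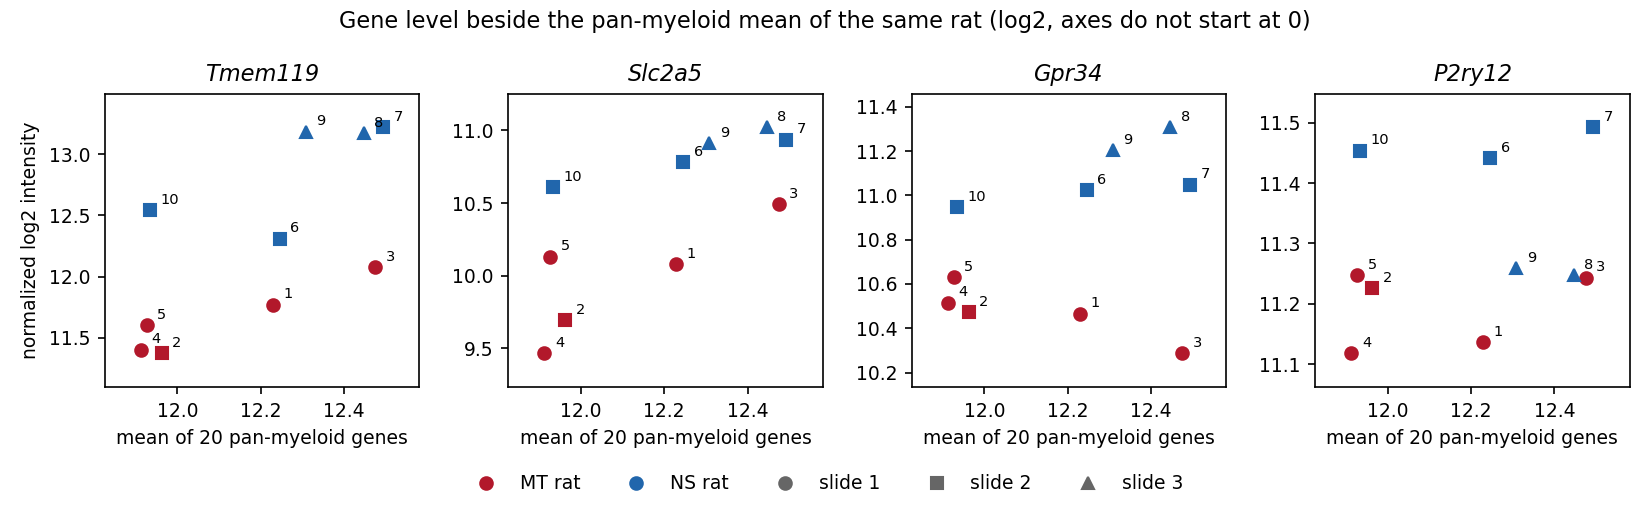
Normalized log2 intensity of Tmem119, Slc2a5, Gpr34 and P2ry12 (vertical axes) against the mean log2 intensity of 20 pan-myeloid genes in the same rat (horizontal axes); points are rats, coloured by group and shaped by slide. MT rats lie lower than NS rats at a like pan-myeloid level for Tmem119, Slc2a5 and Gpr34, while for P2ry12 the NS rats 8 and 9 lie level with MT rats.

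Markers of reactive microglia showed no common direction. Of 20, 17 were tested, 10 higher and 7 lower, with a median log2 fold change of 0.03 and none past either threshold (0 at an unadjusted P under 0.05). The inflammatory cytokine gene Tnf (0.86, adjusted p = 0.347) and the antigen presentation gene Cd74 (-0.64, adjusted p = 0.677) were the farthest from 0, and both groups overlapped for each.

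Markers of border macrophages and neutrophils had higher means in MT, and their part in the members' differences was not tested. All 7 border macrophage genes tested, of 12, were higher in MT, with a median log2 fold change of 0.53. Of all mRNAs 46.8% were higher in MT, 6.36% were higher with an unadjusted P under 0.05 and 1.62% were higher by the study's criteria. Clec10a (1.03) and Mrc1 (0.63), both lectins, and the folate receptor gene Folr2 (0.64) met the study's criteria, and none of the 7 passed the adjusted threshold in limma (5 at an unadjusted P under 0.05). Averaged over the list, log2 intensity ranged from 7.31 to 7.82 for MT and from 6.75 to 7.36 for NS. The border macrophage gene Cd163 did not pass the filter on dim probes, and Ccl24, which did, was dim (mean 3.91 in MT and 3.38 in NS). Without NS rats 8 and 9, 5 of the 7 were higher and the median was 0.49.

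Of 15 neutrophil genes 8 were tested, 7 higher and 1 lower in MT, with a median log2 fold change of 0.64 (0.58 without NS rats 8 and 9). Averaged over the list, log2 intensity ranged from 6.39 to 6.59 for MT and from 5.61 to 6.03 for NS, with no overlap. Prtn3 (mean 3.23 in MT and 2.86 in NS), Ngp (3.63 and 3.00) and Cxcr2 (4.64 and 3.99) were dim and enter these summaries. The filter can be passed on the 5 MT arrays alone, so a dim gene that is brighter in MT is kept more readily. The direction counts of this list and of the border macrophage list carry this limit. S100a8, a subunit of calprotectin (1.44, adjusted p = 0.121), the defensin gene Np4 (1.31, adjusted p = 0.0930) and the receptor gene Csf3r (0.91, adjusted p = 0.0636) met the study's criteria, and S100a8 and Np4 are on the study's own list. By RT-qPCR the study reported a trend for S100a8 without a significant difference. Under normexp S100a8 was at 0.69, Np4 at 0.73 and Csf3r at 0.69. With the slide as a fixed block 5 of the 8 were higher. Of 10 blood monocyte genes 8 were tested, 4 in each direction, with a median of 0.04. Ccr1, a chemokine receptor gene that is also on the study's list, rose by 1.37 on the log2 scale (adjusted p = 0.0287 in limma), as 0.0972% of all mRNAs did. The call did not hold with the slide as a fixed (1.51, adjusted p = 0.573) or a random block (1.42, adjusted p = 0.210) or without NS rats 8 and 9 (1.43, adjusted p = 0.119), nor without MT rats 1, 4 or 5 or NS rats 7, 8 or 9 taken singly (largest adjusted p = 0.134). Fn1, which encodes fibronectin, had 0.59 (adjusted p = 0.245) and met the study's criteria, with no overlap of the groups. It did not meet them with 75th percentile scaling (0.54) or normexp (0.57).

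The lists for the other cells of the tissue had medians of -0.19 for 10 oligodendrocyte genes, -0.04 for 8 astrocyte genes, -0.01 for 9 neuron genes, -0.00 for 6 endothelial genes, -0.04 for 6 erythrocyte genes and 0.02 for 8 lymphocyte genes. The lymphocyte median depended on the slides, at -0.45 with all 8 genes lower under a fixed block, -0.28 under a random block and 0.18 without NS rats 8 and 9, and the erythrocyte median was 0.24 under a fixed block. Within these lists only Cd79b, a B cell receptor subunit, met the study's criteria (-0.89, adjusted p = 0.259). It was dim, with a mean of 3.18 in MT and 4.07 in NS. Under 75th percentile scaling (-0.51), under normexp (-0.17) and without NS rats 8 and 9 (-0.38) Cd79b did not meet them. The oligodendrocyte gene Ermn (-0.42, adjusted p = 0.125) differed with no overlap of the groups, and Opalin, another myelin gene, had -0.38 with overlap. The farthest from 0 in the other lists were the glutamate transporter gene Slc1a2 (-0.31) and the calcium-binding protein gene S100b (0.30) of astrocytes, Rbfox3 (0.27) and Stmn2 (0.20) of neurons, Esam (0.16) and Ocln (0.15) of endothelium, and Slc4a1 (0.49) and Hba-a1 (-0.14) of erythrocytes. None of the genes in these lists passed the adjusted threshold in limma, and 6 had an unadjusted P under 0.05. Of all mRNAs 10.4% were lower and 6.36% higher at that P.

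**Figure D5:**
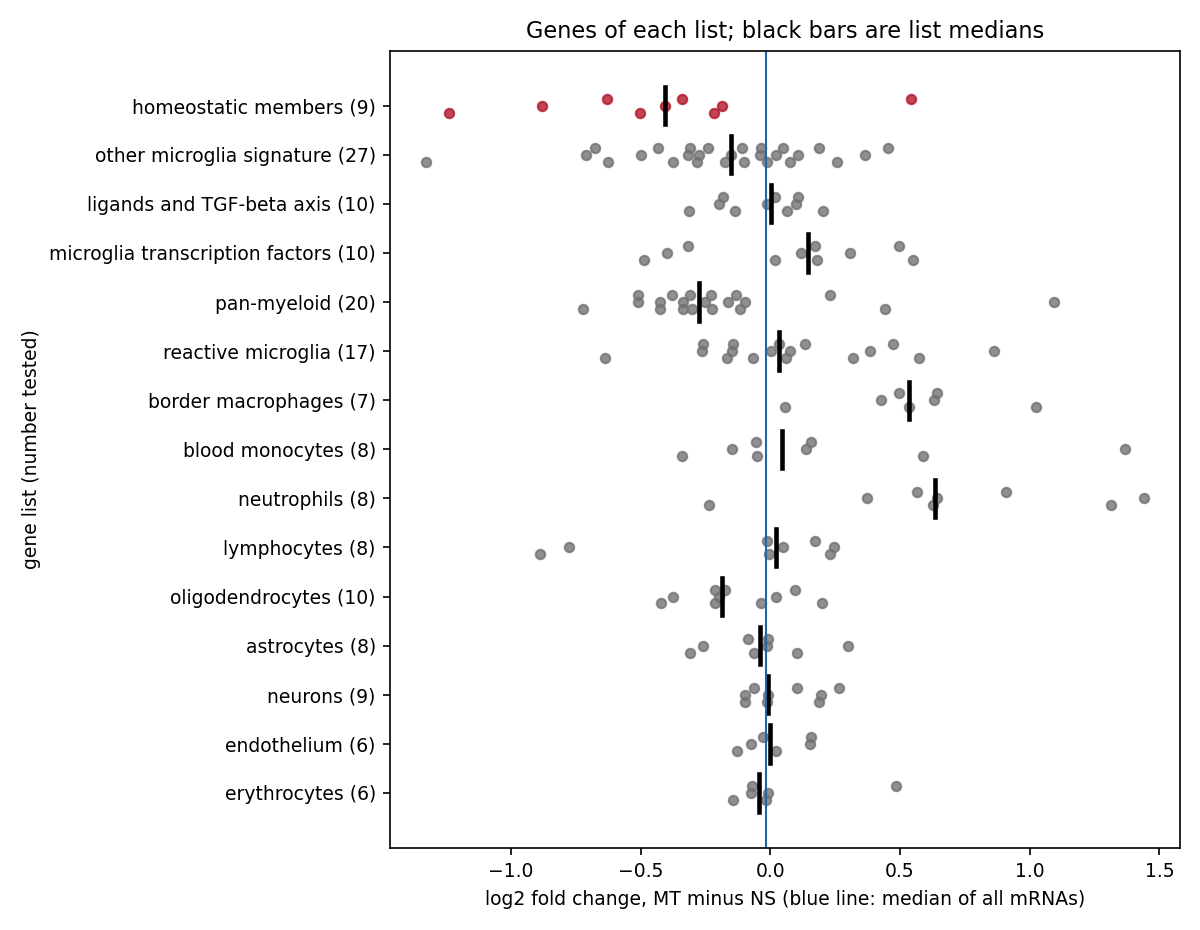
Log2 fold change (MT minus NS, horizontal axis) of every tested gene in each list (rows, with the number tested); the 9 homeostatic genes are red, black bars are list medians and the blue line is the median of all mRNAs (-0.02). In this fit the homeostatic members have the lowest median (-0.41) and the neutrophil genes the highest (0.64), and with a fixed slide block these are the lymphocyte (-0.45) and the border macrophage genes (0.63).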

How the data were processed

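Lumbar spinal cord RNA of 5 MT and 5 NS rats was measured, each on its own one-colour rat lncRNA array. The authors scanned the arrays, used Agilent Feature Extraction 11.0.1.1 and deposited for every spot a background-subtracted intensity on a linear scale with flags for outliers and for spots above background. The authors also deposited a table of log2 intensities, quantile normalized in GeneSpring GX. Here log2 intensities of the scanner output, with values under 1 set to 1 (the lowest was 1.71), were quantile normalized. R 4.3.3 was used, with the packages limma 3.58.1 and data.table (version 1.17.8). After removal of outlier spots, values were averaged first per probe and then per RNA. Probes stayed in where the above-background flag was set for over 50% of their spots on 5 arrays or more.

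MT was compared with NS by limma (lmFit and eBayes) over all RNAs, with Benjamini-Hochberg adjustment over all of them. The methods of the study word the fold threshold as log2, but its tables hold linear folds, so its criteria were taken to mean that the linear fold exceeds 1.5 and the unadjusted P is under 0.05. The log2 reading was added as an alternative after the data were seen. Single genes were also tested by exact two-sided permutation. These steps were tested on simulated data.

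Gene names and positions came from RefSeq for GRCr8, which named 14274 of 15323 mRNA probes. Positions are those of genes, not probes. The members and gene lists were chosen with earlier results of these data known. All members were named, and from each other list up to 4 genes past the study's criteria with the largest difference, or the 2 with the largest difference where none was, besides the fixed ligands, receptors and factors and the 5 mRNAs most like Tmem119. A gene that this rule also names is not reported here.

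Alternative settings included 75th percentile scaling, normexp (offset 50, on the median spot signal, since the mean signal was not in the files used here), the deposited table, no filter, a filter on all 10 arrays, keeping outlier spots, the methods' Student test, a fixed or a random slide block, leaving out NS rats 8 and 9, and leaving out each rat. The fixed block takes its difference from slide 2, with 1 MT array and 3 NS arrays. Plots used Python 3.11.15 and matplotlib 3.10.9. The array number and the signal over background limit the precision.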

Additional observations from a re-analysis of the deposited data

Results flagged for a closer look

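None of the 9 genes had a rat that stood apart from the rest of its group by Dixon's criterion. Over the members and the list genes named with values, 90 groups of 5 rats were examined and 3 held such a rat, where chance gives about 1 in 20. NS rat 10 stood apart for Clec10a, a border macrophage gene, with a normalized log2 intensity of 7.73 against 8.84 for the next NS rat. MT rat 5 stood apart for the fractalkine gene Cx3cl1, at 14.15 against 14.03, and for the astrocyte gene S100b, at 16.35 against 16.44.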

How the results depend on the processing

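The number of the 9 genes that met the study's fold and P criteria stayed between 2 and 4 under the 20 settings, and no member changed sign. The sign could not change where only the filter, the outlier spots or the test differed. With the threshold of 1.5 read as a log2 fold change, an alternative added after seeing the data, 0 members and 20 mRNAs met it. The number past the adjusted threshold was 1, and it was 2 with 75th percentile scaling, the deposited table or a filter on all arrays, 3 with normexp, and 0 with no filter, with the slide as a fixed or a random block, or without NS rats 8 and 9. Leaving out each rat gave 0 to 1. The median log2 fold change of the members was -0.27 without NS rats 8 and 9. Of all mRNAs, 348 met the study's criteria and 31 the adjusted threshold. These counts were 505 and 38 with 75th percentile scaling, 153 and 106 with normexp, 349 and 50 with the deposited table, 531 and 11 with no filter, 248 and 90 with a filter on all arrays, 273 and 46 with the methods' Student test, 220 and 0 with the fixed block, 225 and 0 with the random block, and 506 and 2 without NS rats 8 and 9, and leaving out each rat gave 0 to 59 past the adjusted threshold. With the fixed and random block 525 and 981 mRNAs had an unadjusted P under 0.05. The cause of these shifts was not tested. No paired analysis was possible because the groups share no replicate numbers, and fitting each probe on its own was not run because every member has 1 probe. MT and NS share only slide 2, so a difference between slides and a difference between groups are told apart by 1 MT array alone.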

Other observations

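The mean log2 intensity of the 8 lymphocyte genes differed more between rats than between groups. It was 7.56, 6.24, 8.20, 6.18 and 6.29 in MT rats 1 to 5 and 6.74, 7.51, 7.60, 7.35 and 5.89 in NS rats 6 to 10. MT rat 3, the highest here, was also the MT rat with the highest Tmem119, Cx3cr1, Slc2a5, Csf1r and Sall1 and the lowest Siglec5. The mean of the pan-myeloid list was likewise highest among the MT rats in rat 3 (12.47). These are values of single rats and were not tested.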
